A study of Homo sapiens with 2 samples.

Results

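The 36 genes described here encode chaperones of the cytosol and the mitochondria, their co-chaperones and the heat shock factors HSF1 and HSF2. They were chosen by symbol, and all 36 were found among the 46732 genes of the deposited table. RNA was sequenced from secondary mammospheres, which are floating cell clusters, of T47D cells, an established luminal, estrogen receptor-positive human breast cancer line. One library was labelled CIC knockdown and the other control. The knockdown spheres and the control spheres alike were grown for 7 days, passaged and grown for 7 days more on ultralow attachment plates. The labels do not say how CIC was knocked down or whether the cells were a clone or a pool. Each group has a single library in the labels and tables, although the study's outline mentions duplicates, and whether a column pools them is not stated. The values below therefore compare 2 libraries, without replicates and without any test. In bulk RNA, fewer cells of a type and less RNA per cell cannot be told apart.

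Chaperones bind unfolded or partly folded proteins and use ATP cycles to help them fold, assemble or be degraded. HSP70 proteins are loaded with clients by J-domain proteins and emptied by nucleotide exchange factors, and pass some clients to HSP90, whose co-chaperones set the pace of its cycle. The ring-shaped chaperonin CCT folds actin, tubulin and other proteins in the cytosol, and HSP60 with its lid HSP10 does similar work in the mitochondrial matrix. Under heat or other protein stress, HSF1 binds heat shock elements, which are inverted repeats of a short unit, and raises the transcription of many of these genes.

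CIC (capicua) is a transcriptional repressor. Its mRNA had 872 counts in the library labelled CIC knockdown and 607 in the control library, a ratio of 0.98 with a 95% counting interval of 0.882 to 1.09 after scaling for depth. CIC mRNA was therefore not lower in the library that the label names. The known CIC targets ETV5 and ETV4 were higher there, ETV5 at 4.97 times and ETV4 at 4.69 times the control level. The libraries are called by their labels throughout. Total counts were 68420805 in the knockdown library and 47099221 in the control library, and the members took 1.04% and 0.942% of them. The luminal genes ESR1, GATA3, FOXA1, KRT8, KRT18, KRT19 and EPCAM were all well counted, with log2 ratios between -0.06 and 0.18. Of 7 leukocyte markers 1 was measured, with PTPRC, CD3E and TYROBP at 0 in both libraries, and of 7 endothelial markers 1 was measured. Of 7 fibroblast markers 4 were measured, and their list summed to 30.2 TPM in the knockdown library and 18.0 TPM in the control library. COL1A2 and PDGFRB were at 0, and most of the sum was COL3A1, with 23.1 TPM in the knockdown library and 9.38 TPM in the control library. COL1A1 stood at 1.98 times control, VIM at 1.04 with an interval that held 1, and LUM was lower, at 0.536 (0.471 to 0.609). The part of these markers in the chaperone values was not tested.

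Most chaperone mRNAs were slightly higher in the knockdown library, and the J-domain gene DNAJB1, at 0.45 of its control level, stood alone at the other end. Of the 36 members, 23 were higher and 8 lower by their counting intervals, and 5 had intervals that held 1. Among all 13722 genes with at least 100 counts in a library, 33.8% were higher and 27.3% lower by the same rule. The median log2 ratio of knockdown to control was 0.12 for the members and 0.02 for all genes. The differences were small: 5 members were at least 1.2-fold higher (15.5% of all genes were), and 2 were at least 1.2-fold lower (12.0% of all genes were). No member was 1.5-fold higher (4.28% of all genes were), and 1 was 1.5-fold and also 2-fold lower (3.43% and 0.962% of all genes were). Over 12106 protein-coding genes the higher and lower shares were 36.1% and 27.3% by interval, 15.8% and 11.0% past 1.2-fold, 4.15% and 3.09% past 1.5-fold, and 1.12% and 0.859% past 2-fold. Deep counts make an interval narrow, so the count of 23 was also read against genes of like abundance. Of 1186 genes with at least 10000 counts in a library, 40.0% were higher by interval and the median log2 ratio was -0.01. Of the 23 members at that depth, 19 were higher, with a median of 0.13. At least 1.2-fold higher were 2 of these 23 members (8.70%) and 6.58% of the genes at that depth.

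**Figure D1:**
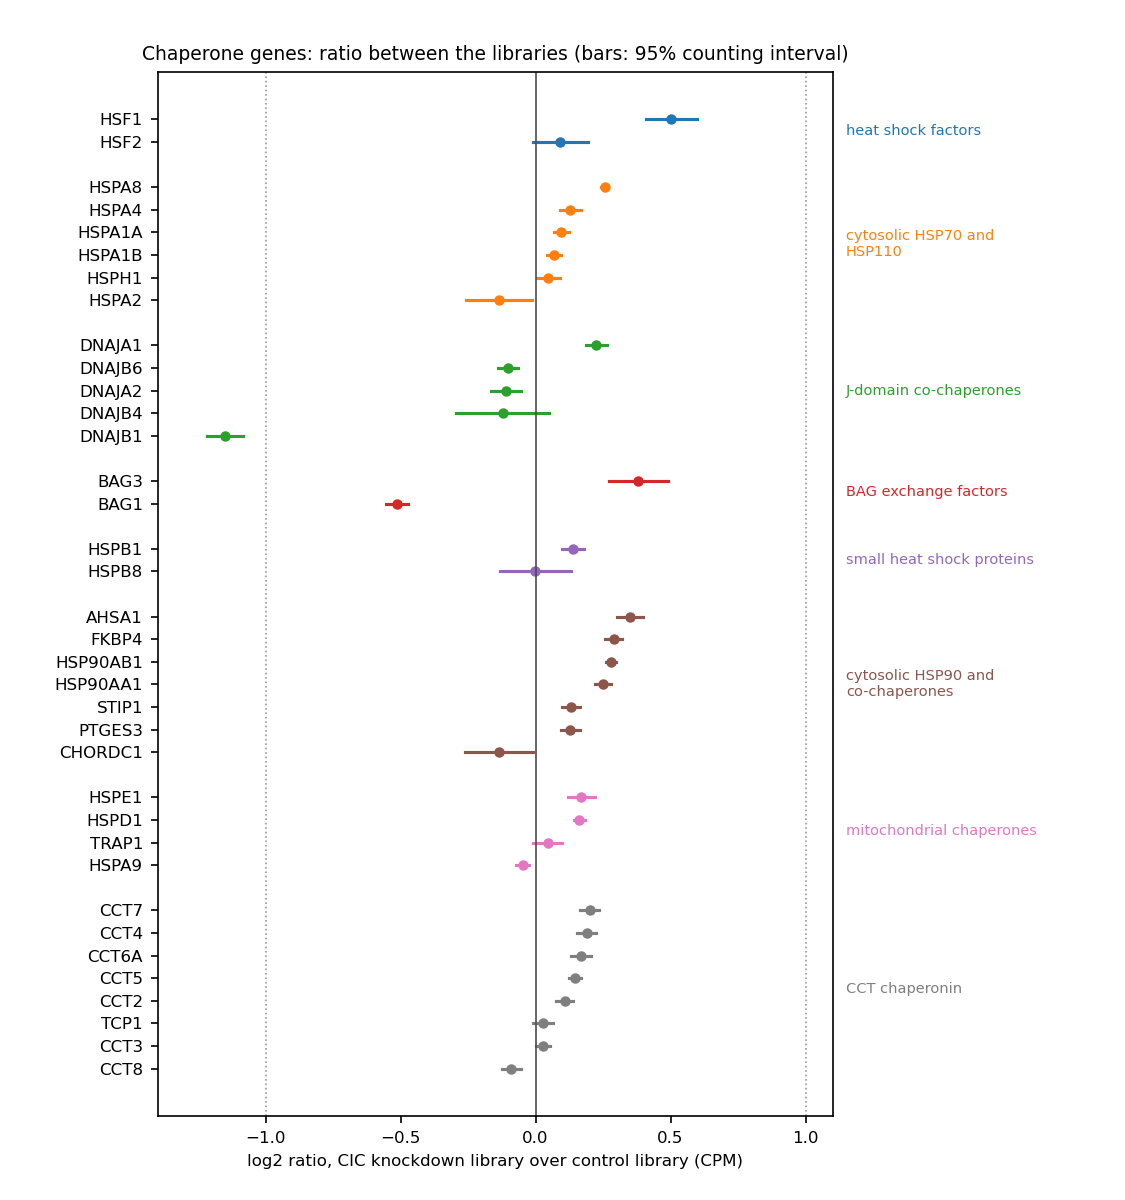
Each point is the log2 ratio of the CIC knockdown library over the control library for 1 of the 36 genes, grouped by role, and each bar is its 95% counting interval. Dotted lines mark a 2-fold difference. DNAJB1 at -1.15 and BAG1 at -0.51 lie to the left, HSF1 at 0.50 farthest to the right, and most others between 0 and 0.3.

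**Figure D2:**
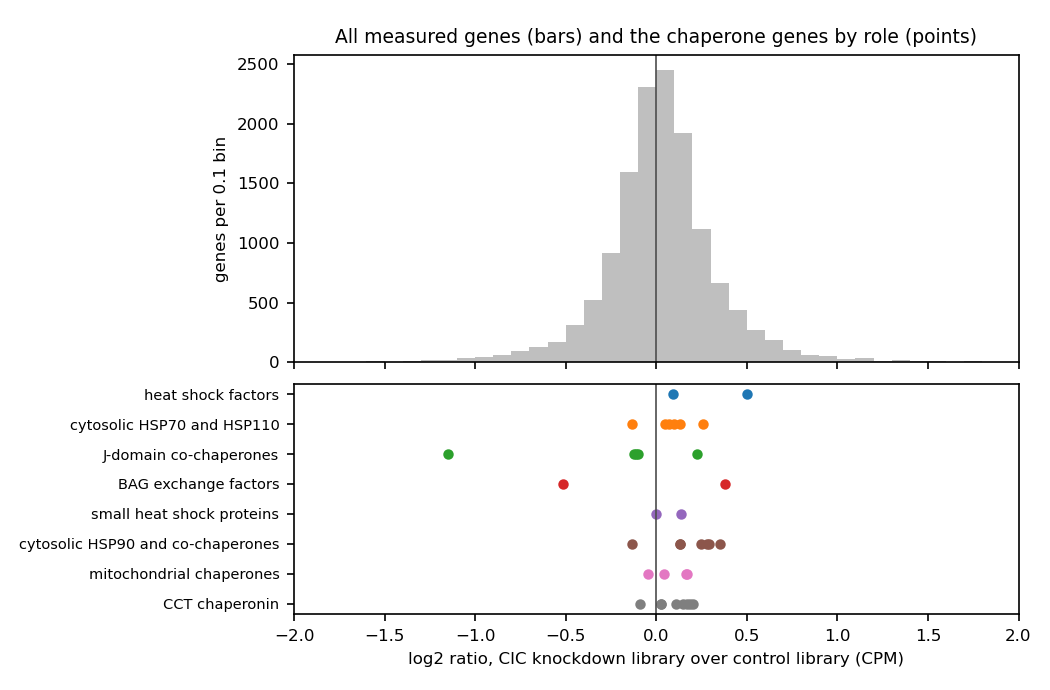
The upper panel counts all 13722 measured genes in bins of their log2 ratio of knockdown to control, within the range plotted, and the lower panel places the 36 chaperone genes by role on the same axis. DNAJB1 and BAG1 lie below the 5th percentile of all genes, -0.48, and no chaperone gene lies above the 95th, 0.55.

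Promoter windows of 300 bases around RefSeq transcription starts on build GRCh38.p14 were at hand for 33 members, with 45 windows among them. HSF1, CCT6A and FKBP4 had none. The windows were searched on both strands for a heat shock element of 3 units, TTCNNGAANNTTC or GAANNTTCNNGAA, and for the shorter pair of units, TTCNNGAA or GAANNTTC, which lies inside the element. An element of 3 units was in 7 of the members' 45 windows (15.6%) and in 172 of all 35116 windows (0.490%). A pair was in 19 windows of the members (42.2%) and in 13.5% of all windows. The CIC octamer, searched as TGAATGAA, TGAATGGA, TCAATGAA and TCAATGGA, was in 0 of the members' windows and in 3.77% of all windows. The 7 members with an element of 3 units were CHORDC1, DNAJA1, DNAJB6, HSP90AA1, HSP90AB1, HSPA8 and HSPD1, with log2 ratios from -0.14 to 0.28. In HSP90AB1 the elements lay in a window where no counted transcript starts. The other 26 members with a window spanned -1.15 to 0.38. A match describes the letters of the window and is neither a binding site nor a cause of a ratio.

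Windows are printed for the 2 members farthest below control, for the HSPA1A and HSPA1B pair, and for 3 genes with an element of 3 units. Capitals mark the element of 3 units where there is one, and otherwise the pair. They come from RefSeq tables of GRCh38.p14 and are given 5′ to 3′ on the strand of the gene. DNAJB1 is at chr19:14518348-14518647, minus strand, and BAG1 at chr9:33264659-33264958, minus strand. HSPA1A is at chr6:31815293-31815592 and HSPA1B at chr6:31827488-31827787, both on the plus strand. HSPA8 is at chr11:123062087-123062386, HSP90AA1 at chr14:102086995-102087294 and CHORDC1 at chr11:90223000-90223299, all on the minus strand.
DNAJB1: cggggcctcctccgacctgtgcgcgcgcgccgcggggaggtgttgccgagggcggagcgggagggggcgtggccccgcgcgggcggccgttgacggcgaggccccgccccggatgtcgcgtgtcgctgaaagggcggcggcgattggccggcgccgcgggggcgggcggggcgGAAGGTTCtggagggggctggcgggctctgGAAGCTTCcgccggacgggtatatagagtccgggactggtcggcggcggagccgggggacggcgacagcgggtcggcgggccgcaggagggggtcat
BAG1: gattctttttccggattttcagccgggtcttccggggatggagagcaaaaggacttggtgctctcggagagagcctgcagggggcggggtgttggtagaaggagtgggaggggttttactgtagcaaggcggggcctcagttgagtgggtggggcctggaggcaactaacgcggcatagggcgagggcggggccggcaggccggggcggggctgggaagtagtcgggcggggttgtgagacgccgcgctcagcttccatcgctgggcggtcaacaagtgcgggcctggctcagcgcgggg
HSPA1A: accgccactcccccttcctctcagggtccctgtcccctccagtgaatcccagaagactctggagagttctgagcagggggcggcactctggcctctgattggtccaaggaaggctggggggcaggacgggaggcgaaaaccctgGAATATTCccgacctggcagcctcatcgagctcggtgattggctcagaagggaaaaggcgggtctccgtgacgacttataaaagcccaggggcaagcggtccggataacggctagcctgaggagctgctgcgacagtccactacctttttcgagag
HSPA1B: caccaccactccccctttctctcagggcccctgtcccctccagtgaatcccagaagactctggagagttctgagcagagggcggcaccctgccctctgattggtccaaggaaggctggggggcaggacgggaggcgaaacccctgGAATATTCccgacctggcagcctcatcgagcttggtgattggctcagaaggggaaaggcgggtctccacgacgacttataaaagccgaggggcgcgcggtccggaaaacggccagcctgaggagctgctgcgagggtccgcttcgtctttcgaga
HSPA8: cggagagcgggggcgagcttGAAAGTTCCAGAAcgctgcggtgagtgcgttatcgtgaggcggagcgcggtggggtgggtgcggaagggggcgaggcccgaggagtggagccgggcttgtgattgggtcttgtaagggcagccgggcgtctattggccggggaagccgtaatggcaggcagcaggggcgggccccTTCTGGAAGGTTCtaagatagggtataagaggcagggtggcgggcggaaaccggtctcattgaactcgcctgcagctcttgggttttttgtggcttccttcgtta
HSP90AA1: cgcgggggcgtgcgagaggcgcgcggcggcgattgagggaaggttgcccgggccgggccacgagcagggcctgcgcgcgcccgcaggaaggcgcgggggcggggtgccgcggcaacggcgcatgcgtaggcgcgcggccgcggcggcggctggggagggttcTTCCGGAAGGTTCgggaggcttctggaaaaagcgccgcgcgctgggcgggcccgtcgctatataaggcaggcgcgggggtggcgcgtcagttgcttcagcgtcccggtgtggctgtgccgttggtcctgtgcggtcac
CHORDC1: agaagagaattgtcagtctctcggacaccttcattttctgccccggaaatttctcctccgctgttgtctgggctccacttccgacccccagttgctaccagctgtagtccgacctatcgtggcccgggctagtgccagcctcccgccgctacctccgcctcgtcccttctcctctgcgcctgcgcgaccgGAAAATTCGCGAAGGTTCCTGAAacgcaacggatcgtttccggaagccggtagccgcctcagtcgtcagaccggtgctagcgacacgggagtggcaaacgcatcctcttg
DNAJB1 carried 2 pairs, beginning 77 and 47 bases before the start, and the BAG1 window held neither motif. The HSPA1A and HSPA1B windows matched at 277 of 301 aligned positions (92.0%) and each carried 1 pair, beginning 106 and 105 bases before the start. HSPA8 carried 2 elements, beginning 230 and 55 bases before the start of NM_006597 at 123062136. The most counted HSPA8 transcript, XM_011542798, starts upstream at 123062366, so the second element lies within its span. HSP90AA1 carried 1 element, beginning 88 bases before its start. CHORDC1 carried 3 overlapping elements, the first beginning 60 bases before its start.

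HSF1, the main heat-responsive transcription factor, was the member with the highest ratio when only annotated transcripts were counted. HSF1 (chromosome 8, 144291604 to 144314720 in its main transcript, GRCh38) had 2826 counts and 20.7 TPM in the knockdown library and 1361 counts and 14.1 TPM in the control library. That is a ratio of 1.42 (1.33 to 1.51) and a log2 ratio of 0.50, above 94.0% of measured genes. The main transcript, with 82.6% of the gene's counts in the knockdown library and 84.6% in the control library, stood at 0.47. The overlapping end of DGAT1, on the opposite strand, covered 137 bases, and DGAT1 itself stood at -0.08. In the gene table that adds assembled transcripts, HSF1 had 3298 counts in the knockdown library and 1786 in the control library, a log2 ratio of 0.35. HSF2, a related factor that can pair with HSF1, had 2058 and 1317 counts in knockdown and control, at a ratio of 1.07 (0.994 to 1.14).

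HSF2 differed more in how its counts were divided among transcripts. The transcript NM_004506 held 53.2% of HSF2 counts in the knockdown library and 23.1% in the control library, and NM_001135564 held 44.8% and 73.4% in the same order. The starts of these transcripts are 101 bases apart on chromosome 6, at 122399652 and 122399551. In all, 30.1% of HSF2 counts moved between its transcripts, against a median of 15.9% over 10663 genes with several transcripts.

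Of 6 cytosolic HSP70 and HSP110 genes, 5 were higher by interval and HSPA2 was lower, with a median log2 ratio of 0.08. HSPA8, the constitutive HSC70 that serves folding in unstressed cells, was the most abundant of all 36 genes in both libraries. It stood at 829 TPM in the knockdown library and 677 TPM in the control library, from 120359 and 68756 counts, at a log2 ratio of 0.26. HSPA8 alone made up 17.4% of the members' summed TPM in the knockdown library and 16.0% in the control library. Its most counted transcript, XM_011542798, begins upstream of NM_006597, within the printed window, and held 81.0% of HSPA8 counts in the knockdown library and 76.5% in the control library. That transcript stood at 0.34 and NM_006597 at -0.18. Pseudogenes of HSPA8 took 1.12% of the family's counts in the knockdown library and 0.976% in the control library, nearly all in HSPA8P8, and adding them left the log2 ratio at 0.26.

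HSPA1A and HSPA1B, the neighbouring stress-inducible HSP70 genes, encode nearly the same mRNA, so that reads cannot be divided between them with certainty. HSPA1A had 28480 counts and 179 TPM in the knockdown library and 18177 counts and 164 TPM in the control library. HSPA1B had 28669 counts and 172 TPM in the knockdown library and 18644 counts and 160 TPM in the control library. Summed, the pair was at a ratio of 1.06 (1.04 to 1.07). The gene table with assembled transcripts gave HSPA1A a log2 ratio of 4.92, from 24496 counts in the knockdown library and 555 in the control library. There, 4 assembled models that join HSPA1A to HSPA1B or reach past it held 6251 counts in the knockdown library and 16947 in the control library. With both genes and those models added together, the locus had 57916 and 33354 counts in knockdown and control, a log2 ratio of 0.26. The HSPA1A ratio thus depended on the set of transcript models.

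HSPA4 and HSPH1 are HSP110 proteins, which release nucleotide from HSP70. HSPA4 had 14762 counts in the knockdown library and 9207 in the control library, a ratio of 1.09 (1.07 to 1.12). HSPH1, which had 45.7 TPM in the knockdown library and 43.0 TPM in the control library, was at 1.03 (1.00 to 1.06). The HSPH1 log2 ratio of 0.05 was -0.01 in the table with assembled transcripts. HSPA2, an HSP70 best known from male germ cells, was much lower in level, at 6.89 TPM in the knockdown library and 7.38 TPM in the control library. Its ratio was 0.911 (0.837 to 0.992), from 1266 and 948 counts.

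The J-domain genes, whose products deliver clients to HSP70 and start ATP hydrolysis, held the largest difference. DNAJB1 (HSP40; chromosome 19, main transcript 14514769 to 14518397) had 3130 counts and 21.1 TPM in the knockdown library and 4739 counts and 45.4 TPM in the control library. DNAJB1 thus stood at 0.45 of control (0.43 to 0.471), or -1.15 on the log2 scale, lower than all but 0.605% of measured genes. With counts halved, in case the 2 mates of a fragment were counted separately, the interval was 0.422 to 0.48. In raw counts DNAJB1 was the only member with fewer counts in the deeper knockdown library than in the control library. In order of TPM among the members it was 29th in the knockdown library and 25th in the control library.

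The lower DNAJB1 level was that of its main transcript. NM_006145, which starts at the printed promoter window, had 2774 counts in the knockdown library and 4277 in the control library, or 88.6% and 90.3% of the gene. It stood at -1.18. NM_001300914, which starts downstream at 14517862, had 57 counts in the knockdown library and 209 in the control library, a log2 ratio of -2.38. XM_006722733 starts upstream at 14529292, where TECR runs on the opposite strand. It went the other way, with 297 counts in the knockdown library and 81 in the control library. Other transcripts with upstream starts were lower in the knockdown library. XM_011527956, starting at 14529272, had 0 and 58 counts in knockdown and control, NM_001313964 had 2 and 31, and XM_006722734 had 0 and 83. Whether reads were divided differently among these upstream models was not tested. The overlapping TECR stood at -0.11 with 1244 and 914 counts. The table with assembled transcripts held the same DNAJB1 counts.

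The other J-domain genes stayed near equal levels. DNAJA1, a ubiquitous partner of HSC70, had 14854 counts and 96.6 TPM in the knockdown library and 8664 counts and 80.7 TPM in the control library, at a log2 ratio of 0.23. DNAJA1 mRNA was 4.58 times as abundant as DNAJB1 mRNA by TPM in the knockdown library and 1.78 times in the control library. DNAJA2 was at 0.927 of the control level (0.893 to 0.962). DNAJB6, which suppresses the aggregation of polyglutamine proteins, was at 0.931 (0.908 to 0.955) in counts. By TPM DNAJB6 was at 126 in the knockdown library and 127 in the control library. The long-isoform DNAJB6 transcript NM_058246 had 2749 counts in the knockdown library and 2857 in the control library, a log2 ratio of -0.61. The short-isoform transcript NM_005494 stood at -0.08. NM_001363676, with the same span as NM_058246, stood at 1.39, with 560 counts in the knockdown library and 145 in the control library. XM_005249515, XM_005249516 and XM_011515704 stood at 2.86, 1.57 and 1.76, and XM_006715823 at -0.43. How reads were divided among these overlapping models was not tested. DNAJB4 was the least abundant member, with 664 and 493 counts and 3.52 and 3.74 TPM in knockdown and control, and its interval of 0.816 to 1.03 held 1.

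The BAG genes, whose products release nucleotide from HSP70, went opposite ways. BAG1 (chromosome 9, 33252471 to 33264708), which also binds BCL2 and nuclear receptors, had 9483 counts in the knockdown library and 9229 in the control library. By TPM it was at 37.4 in the knockdown library and 52.2 in the control library. BAG1 thus stood at 0.701 of control (0.681 to 0.721), or -0.51 on the log2 scale, below all but 4.33% of measured genes. All 4 annotated BAG1 transcripts were below control, NM_004323 at -0.25 and the others at -0.89 or -0.90. They share 1 locus and 1 length of 3820 bases, which leaves their division uncertain. BAG3, which links HSP70 to small heat shock proteins in selective autophagy, had 1975 counts in the knockdown library and 1034 in the control library. It stood at 1.3 (1.21 to 1.41), a log2 ratio of 0.38, with 11.6 TPM in the knockdown library and 8.69 TPM in the control library. Both BAG3 transcripts were above control, at 0.42 and 0.29.

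HSPB1 (HSP27) and HSPB8 are small heat shock proteins, which hold unfolded clients without using ATP. HSPB1 stood at 249 TPM in the knockdown library and 220.5 TPM in the control library, the 4th and 5th place among members, with a ratio of 1.1 (1.07 to 1.13). HSPB8, the partner of BAG3, had 1166 counts in the knockdown library and 796 in the control library, with an interval of 0.912 to 1.09 that held 1.

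**Figure D3:**
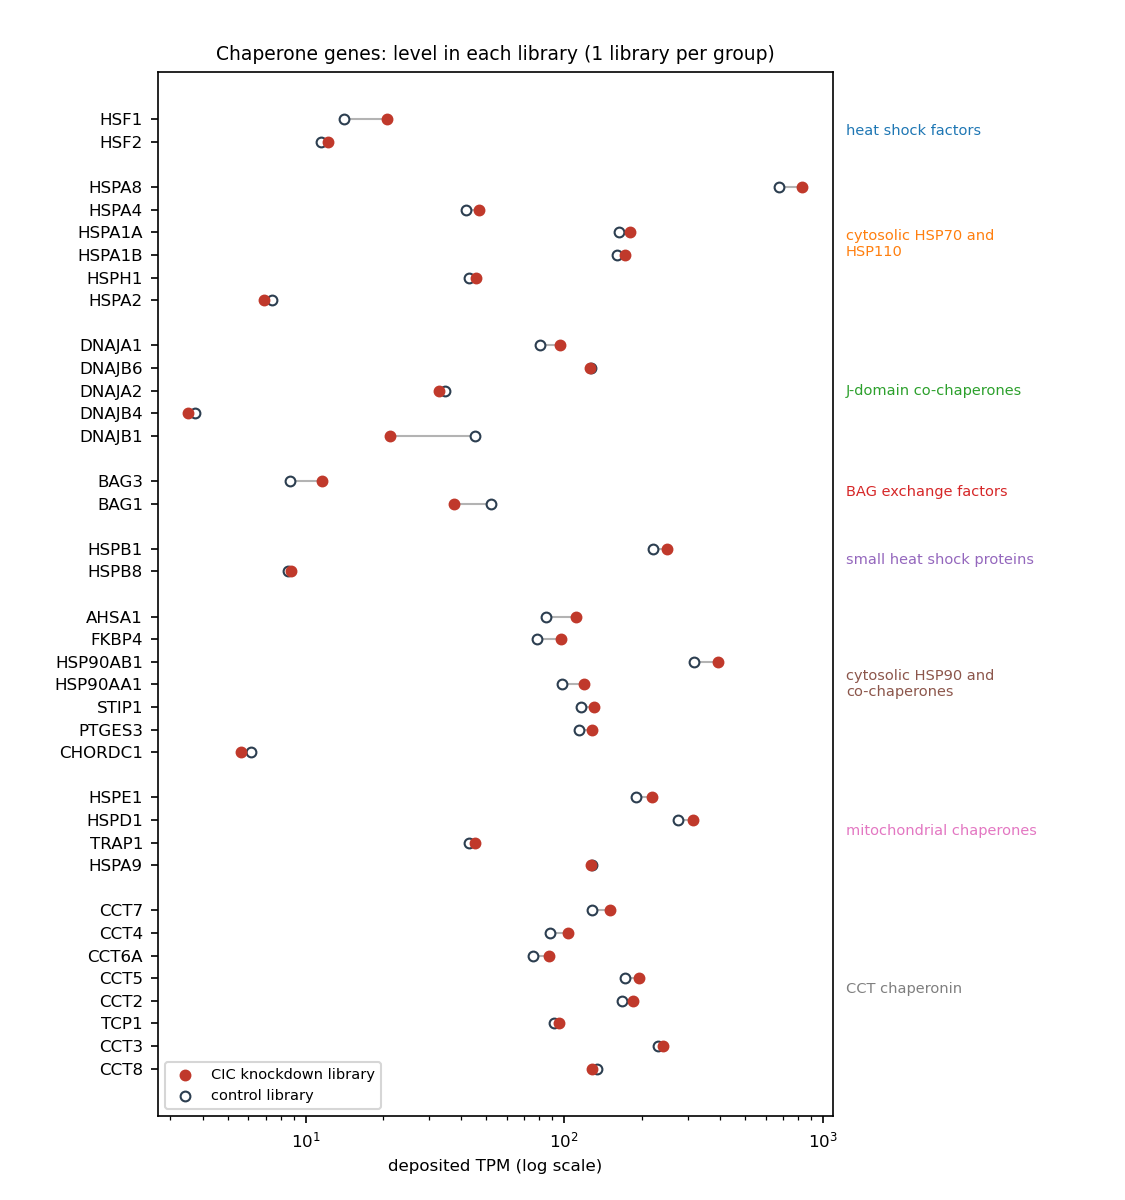
Points give the deposited TPM of each of the 36 genes on a log axis, filled for the CIC knockdown library and open for the control library, with genes grouped by role. HSPA8 is at 829 TPM in the knockdown library and 677 TPM in the control library, DNAJB4 is at 3.52 and 3.74 TPM, and the longest line joins the DNAJB1 values of 21.1 and 45.4 TPM.

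Cytosolic HSP90 and its co-chaperones were the role group of 3 or more genes with the highest median log2 ratio, 0.25, and 6 of the 7 were higher by interval. HSP90AB1, the constitutive isoform, had 66829 counts and 395 TPM in the knockdown library and 37521 counts and 317 TPM in the control library, at 1.21 (1.2 to 1.23). HSP90AA1, the inducible isoform, had 25570 counts and 119 TPM in the knockdown library and 14668 counts and 98.1 TPM in the control library, at 1.19 (1.17 to 1.21). The TPM of HSP90AB1 was 3.30 times that of HSP90AA1 in the knockdown library and 3.23 times in the control library. Both isoforms thus kept their relative level within the library.

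AHSA1, which stimulates the ATPase of HSP90, was highest in this group, with 9826 counts in the knockdown library and 5256 in the control library, at 1.28 (1.23 to 1.32). FKBP4 (FKBP52), the immunophilin of steroid receptor complexes, had 23015 counts in the knockdown library and 12839 in the control library, at 1.22 (1.2 to 1.25). Its longer transcript NM_002014 stood at 0.46, and XM_011520929, with 27.1% of FKBP4 counts in the knockdown library and 35.0% in the control library, at -0.08. STIP1 (HOP), which bridges HSP70 and HSP90, stood at a log2 ratio of 0.13, as did PTGES3 (p23), which holds HSP90 closed on its client. STIP1 was at 130 TPM in the knockdown library and 116 TPM in the control library, and PTGES3 at 128 and 114 TPM. CHORDC1 (morgana), a zinc-binding HSP90 partner, was the exception, at 0.91 (0.834 to 0.994) from 1180 counts in the knockdown library and 884 in the control library.

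CHORDC1 had by far the largest shift between transcripts of any member. Of its counts, 79.6% moved, more than in 95% of genes with several transcripts. NM_012124 held 107 counts in the knockdown library and 782 in the control library, or 9.07% and 88.5% of the gene. XM_017017540 held 444 counts in the knockdown library and 6 in the control library, and XR_001747832 held 524 and 58 in the same order. These 3 transcripts start at 90223049, 90223077 and 90223082 on chromosome 11, all within the printed window. Their lengths of 3070, 3159 and 3162 bases are also close, which leaves the division of reads among them uncertain. Across the 27 members with several transcripts, the median share moved was 1.55%.

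**Figure D4:**
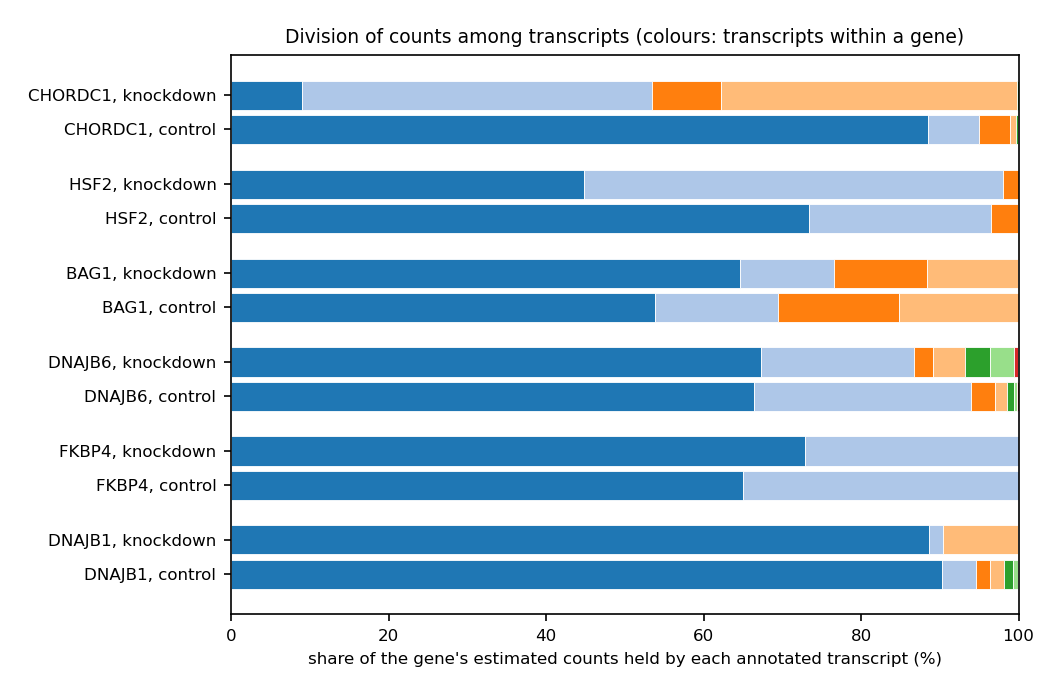
Stacked bars give the percentage of estimated counts held by each annotated transcript of 6 genes, with the CIC knockdown library above the control library for each gene. In CHORDC1 the first bar segment, NM_012124, takes 9.07% in the knockdown library and 88.5% in the control library, in HSF2 it takes 44.8% and 73.4%, and in DNAJB1 88.6% and 90.3%.

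Mitochondrial chaperones split by family. HSPD1 (HSP60) and HSPE1 (HSP10), the chaperonin and its lid, are divergent neighbours on chromosome 2, and their outermost annotated starts at 197500274 and 197500379 are 105 bases apart. HSPD1 had 46931 counts and 315 TPM in the knockdown library and 28600 counts and 275 TPM in the control library, at 1.12 (1.1 to 1.14). HSPE1 had 8052 counts and 218 TPM in the knockdown library and 4880 counts and 189 TPM in the control library, at 1.13 (1.09 to 1.17). The TPM of HSPD1 was 1.45 times that of HSPE1 in both libraries. The readthrough gene HSPE1-MOB4, which shares all of HSPE1, had 447 counts in the knockdown library and 185 in the control library. Adding it to HSPE1 gave 1.14 (1.11 to 1.19). HSPD1 pseudogenes took 1.78% of the family's counts in the knockdown library and 1.97% in the control library.

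HSPA9 (mortalin), the matrix HSP70 that pulls proteins through the inner membrane, was slightly lower, with 37025 counts in the knockdown library and 26104 in the control library, at 0.967 (0.952 to 0.983). TRAP1, the mitochondrial HSP90, had 6666 counts in the knockdown library and 4408 in the control library, and its interval of 0.993 to 1.07 held 1. The group median was 0.10.

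Of the 8 subunits of the CCT chaperonin, 6 were higher by interval, CCT8 was lower and TCP1 was not separated from control. Their log2 ratios lay between -0.09 and 0.20, with a median of 0.13. CCT7 stood at 0.20, CCT4 at 0.19, CCT6A at 0.17, CCT5 at 0.15, CCT2 at 0.11 and both TCP1 and CCT3 at 0.03. CCT8 had 15807 counts in the knockdown library and 11477 in the control library, a ratio of 0.939 (0.917 to 0.962). Although each ring holds 1 copy of each subunit, their mRNAs differed in level, from 87.6 TPM for CCT6A to 242 TPM for CCT3 in the knockdown library. In the control library the same genes marked the ends, at 76.0 and 231 TPM. TCP1 overlaps ACAT2 tail to tail over 615 bases, and ACAT2, an enzyme of lipid metabolism on the opposite strand, stood at 0.63. Together the 8 subunits summed to 1185 TPM in the knockdown library and 1086 TPM in the control library.

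Summed over all members, the chaperone mRNAs reached 4774 TPM in the knockdown library and 4233 TPM in the control library, 1.13 times the control sum. All measured genes had a median log2 ratio of 0.06 by TPM and 0.02 by counts. The sum was 1.21 times control for HSP90 and its co-chaperones, 1.17 times for HSP70 and HSP110, 1.11 times for the mitochondrial group and 1.09 times for CCT. It was 0.963 times control for the J-domain genes and 0.806 times for the BAG genes. By TPM the 3 most abundant members, HSPA8, HSP90AB1 and HSPD1, held the same places in both libraries.

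In the wider chaperone network, list medians lay nearer 0, apart from a list with a single measured gene. Of 17 other heat-inducible genes measured, 4 had an interval above 1 and 7 below it, and their median log2 ratio was -0.03. Some genes stand in more than 1 of the lists that follow. HSPA6, the strictly inducible HSP70 that is nearly silent without stress, had 180 counts in the knockdown library and 253 in the control library, a log2 ratio of -1.03. Its near-identical neighbour HSPA7, under the count minimum, had 33 counts in the knockdown library and 49 in the control library, so reads may be shared between the 2. MLLT11 stood at -0.50 with 110 and 107 counts in knockdown and control. DNAJB5 stood at 0.77, with 230 counts in the knockdown library and 91 in the control library. Of the 17 members on a list of heat-inducible genes, 14 had an interval above 1 and 2 below it, at a median of 0.16. That list includes HSPA8 and HSP90AB1, called constitutive above, and its log2 ratios ran from -1.15 for DNAJB1 to 0.38 for BAG3. Over all measured genes, 33.8% were higher and 27.3% lower by interval. Known HSF1 targets went both ways. DNAJB1 and HSPA6 lay below control, HSPA6 at only 1.15 TPM in the knockdown library and 2.32 TPM in the control library. BAG3 lay above. The mRNA of HSF1 itself, which is not among these targets, also lay above. HSPA1A, HSPA1B, HSPH1, HSPB1, DNAJA1 and HSP90AA1, also known targets, had log2 ratios between 0.05 and 0.25. The activity of HSF1 was not tested.

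Among 13 other HSP70 genes and exchange factors, 6 were higher and 4 lower (median 0.05), with HSPBP1, an exchange factor, at 0.32 and HSPA12A at 0.25. Of 6 other type A and B J-domain genes, 2 were higher and 1 lower (median 0.02). DNAJB14, a J-domain protein anchored in the endoplasmic reticulum membrane, stood at 0.97 with 5817 counts in the knockdown library and 2031 in the control library, and DNAJB12 at -0.13. Of 23 type C J-domain genes, 9 were higher and 6 lower (median -0.03). DNAJC8, a splicing-related member, stood at 1.07 with 5507 counts in the knockdown library and 1782 in the control library, DNAJC24 at 0.68, and DNAJC6 (auxilin) at -0.49. Of 8 other genes listed as small heat shock genes, 6 were at 0 in both libraries and only 1 was measured. That was HSPB11, at 0.53, which is a small heat shock gene by its symbol.

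Of 15 other HSP90 co-chaperones, 4 were higher and 4 lower (median 0.00). The phosphatase PPP5C stood at 0.36, NUDCD2 at -0.69 and AHSA2P, a relative of AHSA1, at -0.67. Of 11 prefoldin and phosducin-like genes, which hand clients to CCT, 7 were higher and 2 lower (median 0.08), led by PFDN1 at 0.34, PDCL3 at 0.22 and TXNDC9 at 0.21. Of 14 mitochondrial chaperone partners and proteases, 4 were higher and 7 lower (median -0.07). DNLZ, which keeps mortalin soluble, stood at 1.01 with 1122 counts in the knockdown library and 380 in the control library, BCS1L at 0.34, and the unfoldase CLPX at -0.33. Of 8 other heat shock factors and regulators, 2 were higher and 2 lower (median 0.03), with TRRAP at 0.23, SIRT1 at -0.18 and EP300 at 0.06.

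**Figure D5:**
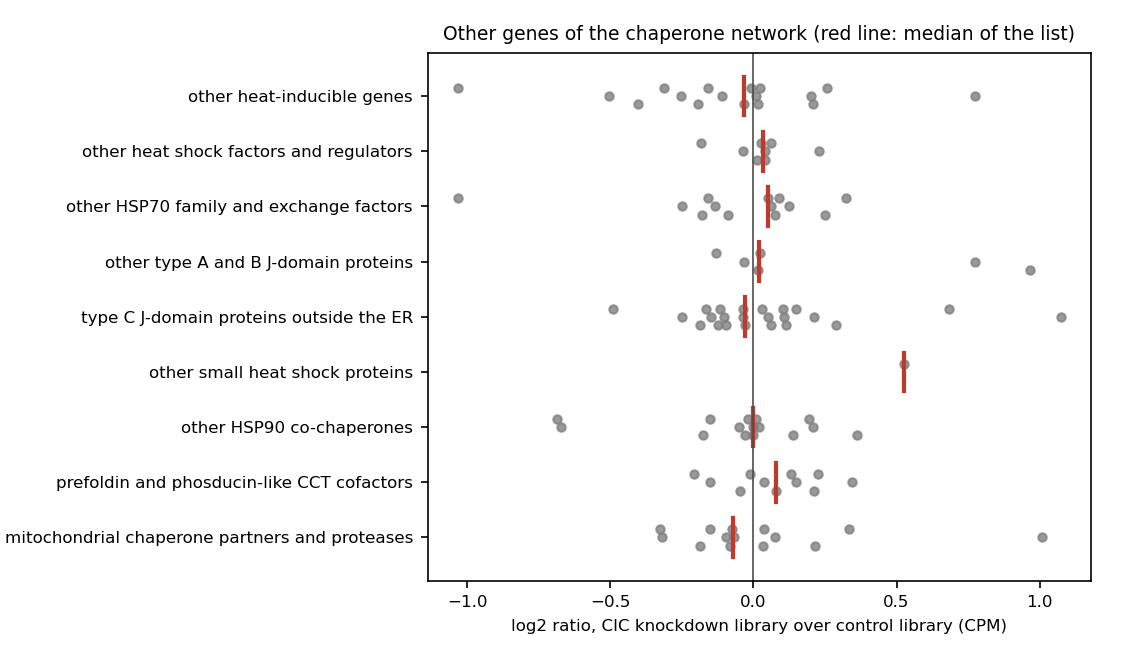
Each grey point is the log2 ratio of knockdown to control of 1 gene with at least 100 counts in a library, in 9 lists of the wider chaperone network, and the red line is the median of the list. Every median lies between -0.07 and 0.08 but that of the small heat shock list, whose single gene is HSPB11. Single genes such as HSPA6 at -1.03 and DNAJC8 at 1.07 lie far out.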

How the data were processed

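Total RNA libraries were made with a strand-specific kit, per the labels' protocols, and Trimmomatic, HISAT2 and StringTie on GRCh38 are named in the submitters' processing notes, without versions. The deposited read counts are estimated counts of genes and transcripts, written by the authors as whole numbers. The deposited FPKM and TPM are the authors' values per transcript length, and TPM sums to 999872 in the knockdown library and 999861 in the control library. A count can move with the division of reads among transcripts and overlapping genes, and the sources used here do not say whether counting used strand.

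Library sizes were scaled by TMM in edgeR 4.0.16 (R 4.3.3), with factors of 1.00 for knockdown and 0.995 for control. Log2 ratios of knockdown to control are of counts on the CPM scale with a prior count of 2. Ratios carry exact Clopper-Pearson 95% intervals conditional on the summed count, which cover counting error only, since PCR copies of a read are not separate molecules. A gene counted as measured with at least 100 counts in 1 library. The interval calculation was run on simulated counts that held counting error only. That checks the calculation and not how well the intervals cover the error of these libraries. Fold rules of 1.2, 1.5 and 2 needed an interval on the same side. Size factors of DESeq2 1.42.0 were among 12 alternatives. The 36 members, the lists and the rules were chosen with earlier results of these data known. All members are named, and from each list up to 3 measured genes with the largest absolute log2 ratio. HSPA7, ACAT2, DGAT1 and TECR are named as near-identical to or overlapping a named gene. 2 listed genes were not found by symbol. Transcripts outside annotated genes and the merged transcript table were not used.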

Additional observations from a re-analysis of the deposited data

Results flagged for a closer look

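The deposited list of assembled splice variants was not part of the comparisons by gene, and, outside the HSPA1A and HSPA1B locus described above, 3 of its variants of chaperone genes were higher in the knockdown library than in the control library by their counting intervals. An assembled HSPH1 variant of 19 exons (chromosome 13, 31051444 to 31161904, minus strand) had 3917 counts in the knockdown library and 0 in the control library, which is 899 times a floor of 3 counts in the control library. The lower limit of the 95% counting interval of its ratio was 731, which covers counting error and not the assignment of reads to models. The model runs past the 3′ end of annotated HSPH1, which lies at 31134973. Another assembled HSPH1 variant had 4817 counts in the knockdown library and 4666 in the control library, at 0.711 (0.683 to 0.74), and the gene as a whole stood near equal levels in both gene tables. An assembled HSF2 variant of 5113 bases (chromosome 6, 122399652 to 122433119) had 1642 counts in the knockdown library and 584 in the control library, at 1.94 (1.76 to 2.13). An assembled BAG1 variant of 1344 bases (chromosome 9, 33255037 to 33264708) had 241 counts in the knockdown library and 89 in the control library, at 1.86 (1.46 to 2.41), while the other 3 assembled BAG1 variants were lower by interval. An assembled HSF1 variant of 3851 bases was lower, with 943 counts in the knockdown library and 761 in the control library, at 0.853 (0.775 to 0.94). The 3 variants were picked because they were higher. The share of all assembled variants that were higher was not computed. Whether reads moved between models of a gene was not tested for any of these variants.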

How the results depend on the processing

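Of the 31 members whose interval lay off 1, all kept their sign under 11 of the 12 alternatives. HSPA1A and HSPA1B were counted once where they were summed. Halving the counts or changing the count minimum left every log2 ratio as it was, so those settings could not change a sign. With assembled transcripts added to the gene table, 30 kept their sign, and HSPH1 turned to -0.010. In that table the HSP70 and HSP110 median was 0.19. There, 8 members were at least 1.2-fold higher (16.9% of its 14797 genes at the count minimum were). Of the members, 1 was 1.5-fold and 2-fold higher (4.88% and 1.48% of those genes were), namely HSPA1A, through the division described above. With deposited TPM the medians were 0.12 for HSP70 and HSP110, 0.28 for HSP90 and its co-chaperones, and 0.16 for CCT. The median over all measured genes also rose, from 0.02 in the main setting to 0.06 with TPM. The members higher by interval numbered 21 to 26 over the alternatives with an interval and those lower 6 to 8, against 23 and 8. They were 26 and 6 with library totals, 21 and 8 with protein-coding totals, and 24 and 6 with assembled transcripts. From halved counts, HSPA2, HSPH1, CCT3 and CHORDC1 no longer had an interval off 1. TPM and FPKM have no interval here, so only the fold entered their counts. No paired analysis was possible because each group has 1 library. No replicates could be left out, and no difference, whatever its size, can be set against the spread between cultures. Most members differed by under 1.2-fold.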
